A study of Mus musculus with 54 samples.

Results

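Hematopoietic stem cells (HSC) from mice that received 16,16-dimethyl prostaglandin E2 (dmPGE2) and were then irradiated were compared, 1 h after irradiation, with HSC from mice that received vehicle and no radiation. The comparison takes 23 of the 54 RNA-seq libraries of the series. The 8 irradiated dmPGE2 libraries are the columns of the count table whose names carry IR and PGE or PGE2 and no 24 h mark. The 15 unirradiated vehicle libraries are all columns named NI-VEH, pooled over the 1 h and 24 h collections because their names give no time. All mice carried a ZsGreen fluorescent reporter in Fgd5, a gene active in HSC, on a C57BL/6 background, and the labels give no age. They received dmPGE2, or ethanol as vehicle, under the skin in saline 30 min before 8.53 Gy, a dose lethal to 50% of animals, and unirradiated groups received the same injections. The dmPGE2 dose is uncertain: 35 µg is labelled, whereas the labelled volume (3.5 µL) and concentration (0.1 mg/ml) give 0.35 µg. HSC were sorted from bone marrow by SLAM-LSK(wide) surface markers and by the reporter. The 8 irradiated vehicle libraries and the 7 unirradiated dmPGE2 libraries of 1 h are set beside the comparison where they show what either treatment alone gave.

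HSC are rare bone marrow cells, mostly out of cycle, that renew themselves and give rise to all blood lineages. PGE2 acts on the receptors EP1 to EP4. EP2 and EP4 couple to Gs and raise cAMP, which activates protein kinase A and the transcription factor CREB, and a brief burst of immediate early genes follows. Ionizing radiation breaks DNA, activates the kinase ATM and stabilizes p53, which induces genes of cell cycle arrest and apoptosis, and ATM also activates NF-kB.

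Total counts ran from 21085900 to 25384366 in the irradiated dmPGE2 libraries, from 20437332 to 26217041 in irradiated vehicle, from 19963860 to 22976367 in unirradiated dmPGE2 and from 15049364 to 25278219 in unirradiated vehicle. The control columns fall into a run of 8 with sample numbers S42 to S70, within which the irradiated dmPGE2 columns (S45 to S72) lie, and a run of 7 with S79 to S85. Each of the 7 repeats a tag, such as 5-2, of the first run. In 7 of 7 same-tag pairs the deviation of a library from the mean of its run was most like that of its own tag (correlation over genes 0.20 to 0.46), and in 7 of 7 Xist and Y-linked genes gave the same sex. Fos spanned 1.24 to 784 CPM (counts scaled to a common library size) over the controls but differed at most 3.16-fold within a pair, and Elane, a neutrophil granule gene that spanned 9.46 to 236 CPM, at most 1.37-fold. The pairs still differed beyond counting noise, with a variance over 11290 genes of 13.1 to 26.3 times that of counting, against 16.9 to 51.4 times for libraries of different tags. Both libraries of a pair may come from the same mouse or from different mice that share a tag, which cannot be told apart here. If they come from the same mouse, 15 controls stand for 8 mice and the p-values below are too small. The total of called genes is therefore also given with same-tag controls summed into 8 samples and with the 8 controls S42 to S70 alone. Sex by counts was 5 female and 10 male among the controls, where the labels give 7 and 8. It matched the labels in the other 3 groups of 1 h. Both controls of tag 5-1 (S42 and S79) read as male, whereas the tag 5-1 libraries of the other 3 groups read as female. For each other tag, all libraries read as the same sex in every group that has it. A match in sex within a pair therefore does not tell a shared mouse from a shared tag. The runs of 8 and 7 controls equal in size the labelled 1 h and 24 h unirradiated vehicle groups, but no column name ties a run to a time.

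**Figure D1:**
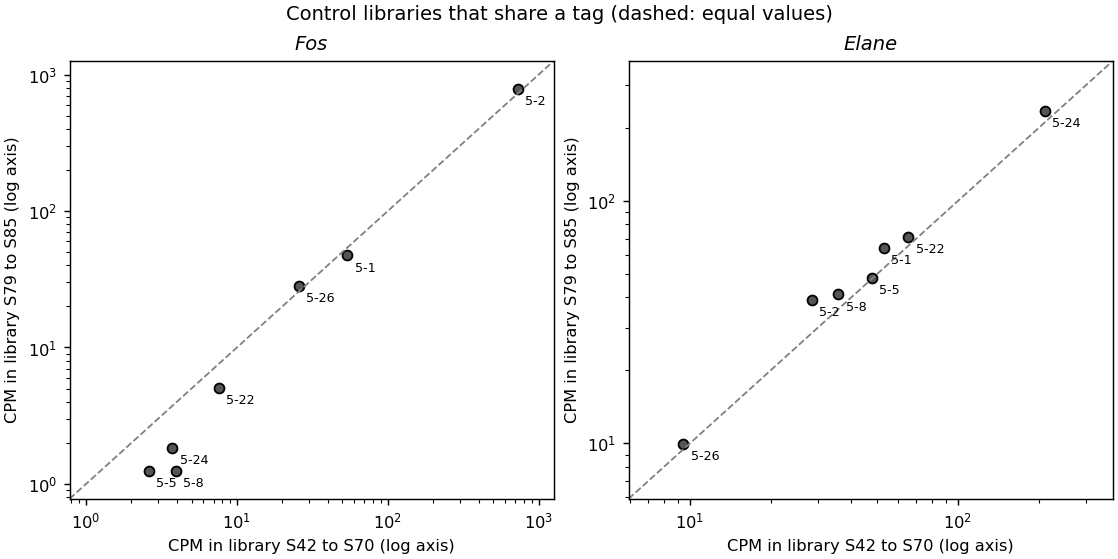
CPM of Fos and Elane in the 7 pairs of unirradiated vehicle libraries that share a tag, with the library of S42 to S70 on the x axis and that of S79 to S85 on the y axis, both logarithmic; the dashed line marks equal values. Pairs lie near the line, farthest from it at the lowest Fos values, and the 2 libraries of tag 5-2 are highest in Fos.

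Of 14320 genes tested, 1368 (9.55%) were higher and 1255 (8.76%) lower in irradiated dmPGE2 HSC than in unirradiated vehicle HSC at an adjusted p below 0.05 (edgeR quasi-likelihood test, Benjamini-Hochberg adjustment over all genes). With upper-quartile scaling the split was 1053 higher and 1569 lower. With same-tag controls summed, 13.4% of 14196 genes were called, 917 (6.46%) higher and 989 (6.97%) lower, and against the controls S42 to S70 alone 1031 of 14208 (7.26%) were higher and 976 (6.87%) lower. Against S79 to S85 alone 1277 (9%) were higher and 1120 (7.89%) lower. In all, 823 genes (5.75%) were higher and 836 (5.84%) lower in all 3 fits, and such genes are said here to have held. List counts below can be read against 9.55% higher and 8.76% lower of all genes, and held counts against 5.75% and 5.84%. Large changes were mostly increases: 303 genes (2.12%) were called at least 2-fold higher and 175 (1.22%) at least 2-fold lower. For 277 genes (1.93%) every irradiated dmPGE2 library lay above every control library, and for 195 (1.36%) every one lay below.

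Where mean log2 CPM over both groups reached 2, the 12 called genes with the highest fold changes were Klf2, Nr4a1, Btg2, Plaur, Cdkn1a, Cd69, Cebpb, Gdf15, Socs3, Crem, Dusp1 and Rasd1. Each held, and in each the 8 irradiated dmPGE2 libraries lay above all 15 controls. Nr4a1 (chr15:101266846-101274794, mm10), a nuclear receptor and immediate early gene, had 440, 666 and 995 CPM (lowest, median, highest) in irradiated dmPGE2 HSC and 7.36, 12.7 and 23 CPM in unirradiated vehicle HSC. Its log2 fold change was 5.80 ± 0.31 (standard error, SE; edgeR adjusted p = 3.51e-21). Klf2 (chr8:72319062-72321654), a transcription factor that restrains proliferation in lymphocytes, had 91.8, 346 and 491 CPM in irradiated dmPGE2 HSC against 1.47, 3.74 and 13.3 CPM in unirradiated vehicle HSC, a log2 fold change of 5.86 ± 0.53 (SE, edgeR adjusted p = 1.37e-12). The median of Nr4a1 was 29.8 CPM in irradiated vehicle and 486 CPM in unirradiated dmPGE2 HSC, and that of Klf2 10.2 and 281 CPM. Btg2 (chr1:134074865-134079155), an antiproliferative p53 target, was high with either treatment: its median was 829 CPM in irradiated dmPGE2 HSC, 660 CPM in irradiated vehicle, 185 CPM in unirradiated dmPGE2 and 15.9 CPM in unirradiated vehicle. Its 8 irradiated dmPGE2 values ran from 427 to 995 CPM and its controls from 6.96 to 48.7 CPM (log2 fold change 5.34 ± 0.23, edgeR adjusted p = 4.21e-25). Plaur, the urokinase receptor, had a median of 565 CPM (377 to 692) in irradiated dmPGE2 HSC and 11.8 CPM (8.10 to 27.6) in the controls, with medians of 30.7 CPM after radiation alone and 416 CPM after dmPGE2 alone.

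**Figure D2:**
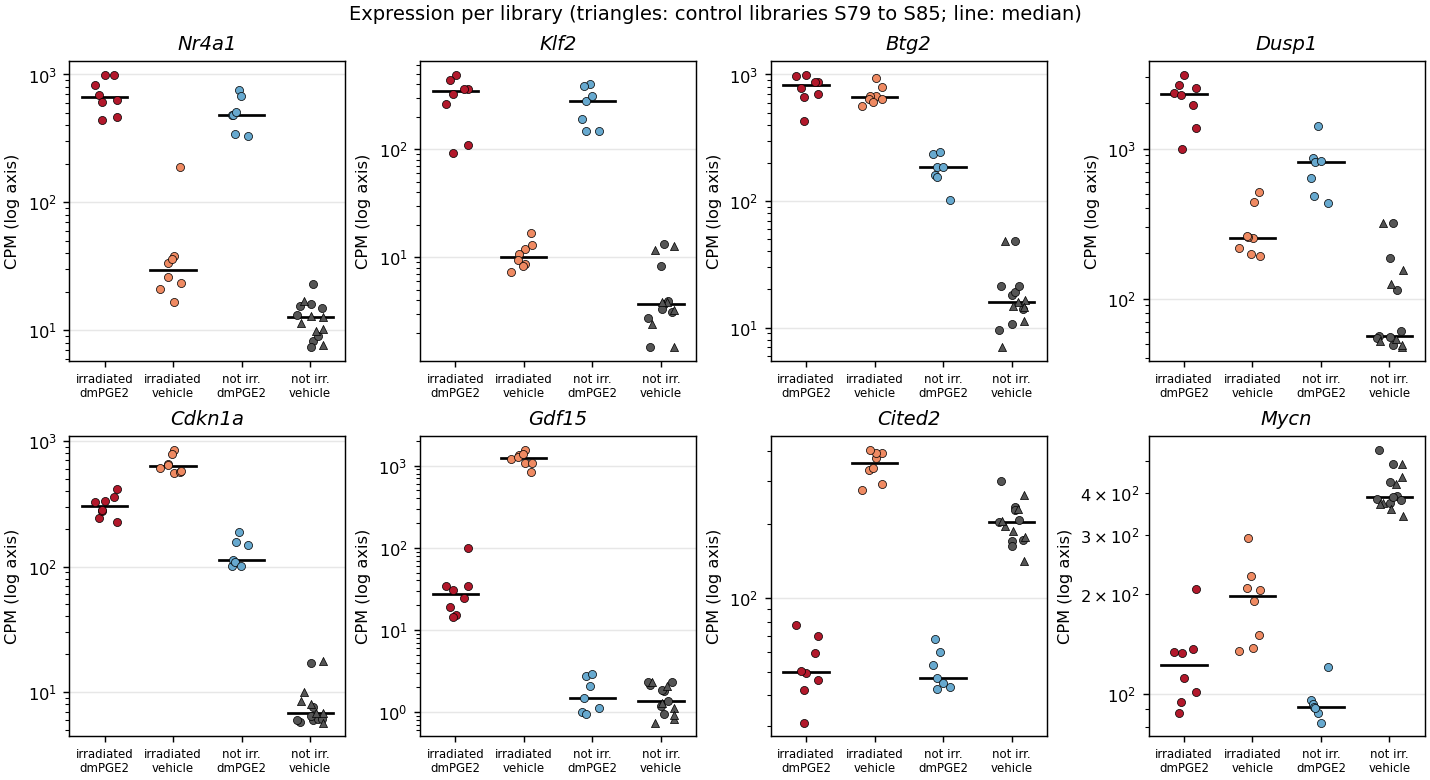
CPM per library on logarithmic axes for 8 genes in irradiated dmPGE2, irradiated vehicle, unirradiated dmPGE2 and unirradiated vehicle HSC; lines are medians and triangles are the control libraries S79 to S85. Nr4a1 and Klf2 stand high in both dmPGE2 groups, Gdf15 lies between irradiated vehicle and the control, and Cited2 is low in both dmPGE2 groups.

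Promoter windows of Btg2, Dusp1, Nr4a1 and Klf2 are shown because the 12 genes include known CREB targets. Such targets carry the cAMP response element TGACGTCA or its part TGACG. RefSeq (GRCm38.p6) windows of 300 bases, 250 before and 50 after a gene's start, were found for 9 of the 12 genes, and TGACGTCA was present in 2 of them (22.2%), Btg2 and Dusp1, against 370 of 10830 tested genes with a window (3.42%). TGACG, read on either strand and contained in every TGACGTCA, was present in 5 of 9 (55.6%), against 3713 of 10830 (34.3%). Among the 1064 genes called higher that have a window, 73 (6.86%) held TGACGTCA, and among the 1001 called lower 34 (3.40%). In a list of cAMP and CREB targets, 12 genes called higher had a window. Of these, 1 (8.33%) held TGACGTCA and 10 (83.3%) held TGACG. Capitals mark each TGACG on either strand, so that 8 capitals in a row are a full element:
Btg2, chr1:134079106-134079405, minus strand: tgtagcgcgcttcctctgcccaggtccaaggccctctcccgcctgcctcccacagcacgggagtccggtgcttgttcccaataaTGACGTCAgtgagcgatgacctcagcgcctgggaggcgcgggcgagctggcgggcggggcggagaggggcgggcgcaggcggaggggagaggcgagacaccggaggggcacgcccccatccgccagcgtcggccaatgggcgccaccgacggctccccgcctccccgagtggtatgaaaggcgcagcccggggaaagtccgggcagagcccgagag
Dusp1, chr17:26508423-26508722, minus strand: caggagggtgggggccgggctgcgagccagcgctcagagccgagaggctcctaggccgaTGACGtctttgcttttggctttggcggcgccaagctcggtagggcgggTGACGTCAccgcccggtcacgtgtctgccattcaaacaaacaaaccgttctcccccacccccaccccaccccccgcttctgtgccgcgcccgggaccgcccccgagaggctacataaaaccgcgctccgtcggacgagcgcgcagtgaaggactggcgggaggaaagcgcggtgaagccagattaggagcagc
Nr4a1, chr15:101266596-101266895, plus strand: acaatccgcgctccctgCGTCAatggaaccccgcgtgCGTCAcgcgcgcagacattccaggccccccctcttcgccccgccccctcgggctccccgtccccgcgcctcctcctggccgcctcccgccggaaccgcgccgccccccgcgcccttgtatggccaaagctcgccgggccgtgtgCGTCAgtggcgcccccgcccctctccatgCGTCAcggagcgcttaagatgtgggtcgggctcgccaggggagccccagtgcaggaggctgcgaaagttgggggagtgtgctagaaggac
Klf2, chr8:72318812-72319111, plus strand: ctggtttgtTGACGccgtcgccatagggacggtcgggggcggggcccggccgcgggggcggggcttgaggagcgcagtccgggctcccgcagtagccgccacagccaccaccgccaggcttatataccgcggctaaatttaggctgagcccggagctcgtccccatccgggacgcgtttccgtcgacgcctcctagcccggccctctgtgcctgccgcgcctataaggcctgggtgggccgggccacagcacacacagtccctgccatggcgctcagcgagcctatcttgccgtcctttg
The Btg2 and Dusp1 windows hold 1 full element each, Nr4a1 holds 4 copies of the shorter part and Klf2 1. Windows of Cdkn1a, Gdf15, Plaur and Socs3, not printed, hold 0 copies of either, and that of Cebpb holds 3 of the shorter part. A match is a run of letters and was not shown here to bind a factor.

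Immediate early genes, which are transcribed within minutes of a signal without new protein, had the largest share of called members. Of 32 tested, 25 were higher, 1 lower and 6 not called, with a median log2 fold change of 2.42 against 0.00 over all genes tested, and 25 were higher against the controls S42 to S70 as well. Junb, an AP-1 subunit, had 826, 1114 and 1408 CPM in irradiated dmPGE2 HSC against 44.4, 68 and 327 CPM in unirradiated vehicle HSC (log2 fold change 3.43 ± 0.27, edgeR adjusted p = 1.83e-14). The groups did not overlap, but the control of 327 CPM stood far above the control median. Egr1, a zinc finger factor linked to HSC retention in the niche, had 374, 828 and 1474 CPM in irradiated dmPGE2 HSC against 41.0, 78.9 and 696 CPM in the controls, and its groups overlapped (log2 fold change 2.33 ± 0.38, edgeR adjusted p = 5.49e-06). Fos, named for this pattern after its values were seen, was not called, with 269, 466 and 657 CPM in irradiated dmPGE2 HSC against 1.24, 5.66 and 784 CPM in the controls (log2 fold change 2.09 ± 0.79, edgeR adjusted p = 0.0557). The 2 controls of tag 5-2 held 729 and 784 CPM of Fos. Without them, left out after their Fos values were seen, the Fos log2 fold change was 5.05 (edgeR adjusted p = 6.9e-09). The irradiated dmPGE2 library of that tag, with 645 CPM of Fos, stayed in, so this p-value is not an independent test of Fos. In that fit 26 members of the list were higher and 1 lower, beside 8.44% and 9.14% of all genes. Jun, another AP-1 subunit, was lower in irradiated dmPGE2 HSC (median 174 CPM) than in irradiated vehicle HSC (516 CPM; log2 fold change -1.64, edgeR adjusted p = 0.00874), with 35.6 CPM in unirradiated dmPGE2 and 36.6 CPM in unirradiated vehicle HSC.

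Genes of the cAMP and CREB list followed: of 25 tested, 17 were higher and 1 lower (median log2 fold change 2.19), and 16 and 1 held. Crem, which encodes the cAMP-induced repressor of its own pathway, had 77.6, 168 and 231 CPM in irradiated dmPGE2 HSC against 4.05, 7.19 and 20.2 CPM in unirradiated vehicle HSC (log2 fold change 4.25 ± 0.40, edgeR adjusted p = 2.74e-12). Sik1, a kinase that switches off CREB coactivators, had 215, 383 and 520 CPM against 8.77, 19.3 and 42 CPM (4.13 ± 0.27, edgeR adjusted p = 5.46e-18). In neither gene did the groups overlap. The cAMP phosphodiesterases Pde4d and Pde4b, which break cAMP down, rose as well, with medians of 61.4 and 791 CPM in irradiated dmPGE2 HSC against 11.8 and 200 CPM in the controls. Cited2, a transcriptional coregulator needed for HSC maintenance (chr10:17723228-17725674), was the member that fell, with 31.0, 49.9 and 77.3 CPM in irradiated dmPGE2 HSC against 142, 204 and 300 CPM in unirradiated vehicle HSC. Its log2 fold change was -1.95 ± 0.13 (SE, edgeR adjusted p = 2.84e-18), its groups did not overlap, and its median was 356 CPM in irradiated vehicle and 47 CPM in unirradiated dmPGE2 HSC. The EP receptor genes were not called: Ptger4 (EP4) had a median of 80.8 CPM in irradiated dmPGE2 HSC and 84.9 CPM in the controls, Ptger1 25.0 and 28.3 CPM, Ptger3 78.1 and 69.4 CPM, and Ptger2 (EP2) 0.433 and 0.267 CPM. Of the 19 prostanoid genes 2 were higher and 1 lower, a share of 15.8% called beside 18.3% of all genes. Ptgs2, the inducible cyclooxygenase, had 7.21, 17.0 and 31.2 CPM against 0, 0.0399 and 2.35 CPM, while Tbxa2r, the thromboxane receptor, fell to a median of 11.4 CPM in irradiated dmPGE2 HSC against 38.5 CPM in the controls (log2 fold change -1.66 ± 0.20, edgeR adjusted p = 2.93e-09).

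Of 40 feedback inhibitors of MAP kinase and cytokine signalling, 18 were higher, 3 lower and 19 not called (median log2 fold change 0.46), and 17 and 3 held. Dusp5, a nuclear ERK phosphatase, had 110, 175 and 228 CPM in irradiated dmPGE2 HSC against 11.2, 15.4 and 20.6 CPM in unirradiated vehicle HSC (log2 fold change 3.56 ± 0.15, edgeR adjusted p = 5.85e-27). Dusp1, which acts on p38 and JNK, had 998, 2312 and 3104 CPM against 47.2, 56.2 and 319 CPM (4.25 ± 0.38, edgeR adjusted p = 5.60e-13). Socs3, an inhibitor of JAK-STAT signalling, had 137, 385 and 742 CPM against 11.5, 18.3 and 34.2 CPM (4.31 ± 0.37, edgeR adjusted p = 2.84e-13). All 3 lay above every control. Dusp6, a cytoplasmic ERK phosphatase, was among the 3 lower members, with medians of 79.7 CPM in irradiated dmPGE2 HSC and 117 CPM in the controls. Pim3, a serine/threonine kinase, varied little between libraries, with 180, 244 and 292 CPM in irradiated dmPGE2 HSC against 48.5, 54.1 and 63.8 CPM in unirradiated vehicle HSC (log2 fold change 2.15 ± 0.07, edgeR adjusted p = 9.53e-32).

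Of the 46 p53 target genes tested, 20 were higher, 2 lower and 24 not called, with a median log2 fold change of 0.34, and 19 of the higher genes and neither of the lower ones (Fas and Trp53inp1) held. Cdkn1a (chr17:29090986-29100722), the CDK inhibitor p21, had 228, 303 and 411 CPM in irradiated dmPGE2 HSC against 5.73, 6.81 and 17.6 CPM in unirradiated vehicle HSC, a log2 fold change of 5.21 ± 0.16 (SE, edgeR adjusted p = 1.48e-32, the lowest of all genes tested). Its median was 626 CPM in irradiated vehicle and 112 CPM in unirradiated dmPGE2 HSC, and the irradiated dmPGE2 libraries lay between those groups without overlap. Gdf15, a stress cytokine, had 14.2, 27.4 and 99.9 CPM in irradiated dmPGE2 HSC and 0.749, 1.35 and 2.35 CPM in the controls (log2 fold change 4.44 ± 0.31, edgeR adjusted p = 1.31e-16). Its irradiated vehicle libraries had 842 to 1556 CPM, and its unirradiated dmPGE2 libraries 0.949 to 2.88 CPM. Relative to irradiated vehicle HSC, 27 of the 46 targets were lower in irradiated dmPGE2 HSC and 1 was higher, beside 7.77% of all genes lower and 7.04% higher in that comparison. Against the same controls, 33 targets were higher and 0 lower in irradiated vehicle HSC (8.65% and 7.31% of all genes by the edgeR test), and 9 higher and 6 lower in unirradiated dmPGE2 HSC (5.28% and 5.82%). Targets with a small difference from the control included Mdm2, the ubiquitin ligase that degrades p53, with medians of 120 CPM in irradiated dmPGE2 HSC, 393 CPM in irradiated vehicle, 81.3 CPM in unirradiated dmPGE2 and 86.9 CPM in unirradiated vehicle (log2 fold change 0.38 ± 0.10, edgeR adjusted p = 0.00321). Among targets that were not called, the 4 with the highest levels were Gpx1, Sesn1, Ei24 and Xpc. Ei24, for example, had a median of 120 CPM in irradiated dmPGE2 HSC, 197 CPM in irradiated vehicle and 121 CPM in unirradiated vehicle.

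**Figure D3:**
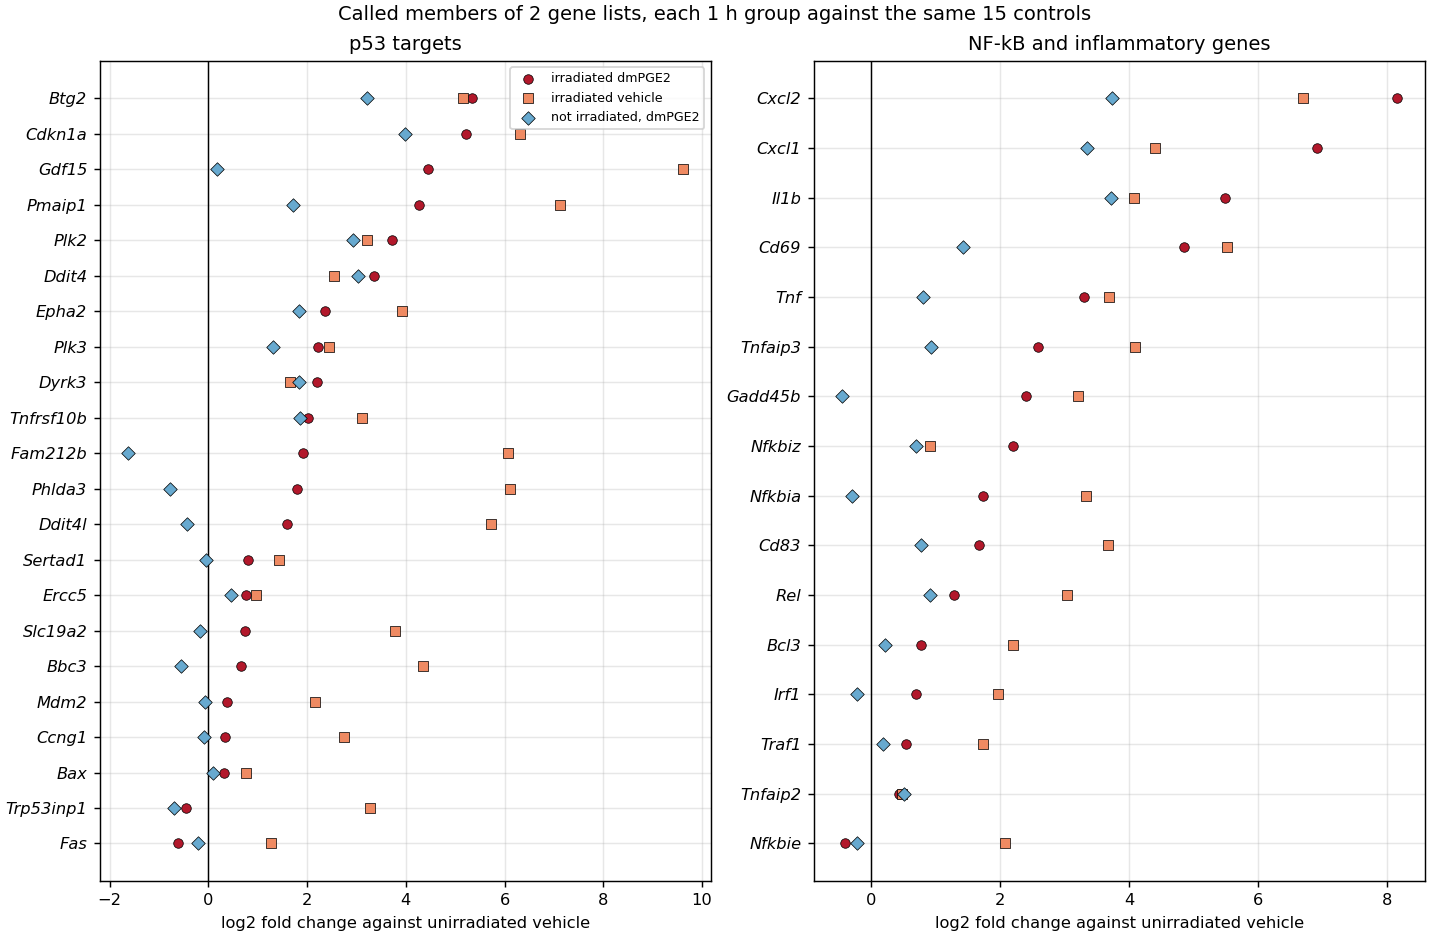
Log2 fold change against the same 15 unirradiated vehicle libraries for the called members of the p53 target list and of the NF-kB and inflammatory list, in irradiated dmPGE2 HSC (circles), irradiated vehicle HSC (squares) and unirradiated dmPGE2 HSC (diamonds). Gdf15, Phlda3 and Bbc3 are far higher in irradiated vehicle than in irradiated dmPGE2 HSC, whereas Btg2 and Plk2 are not, and Cxcl2 is highest in irradiated dmPGE2 HSC.

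Of 17 pro-apoptotic genes, 5 were higher and 0 lower by the edgeR quasi-likelihood test, and 4 held. Pmaip1 (NOXA), a p53-induced BH3-only gene, had 4.18, 7.71 and 38.7 CPM in irradiated dmPGE2 HSC against 0, 0.636 and 1.46 CPM in unirradiated vehicle HSC, a log2 fold change of 4.26 that was 3.63 without the library of 38.7 CPM. In irradiated vehicle HSC its median was 80.3 CPM. Bbc3 (PUMA), another p53-induced BH3-only gene, had 11.3, 21.4 and 42.4 CPM in irradiated dmPGE2 HSC against 11, 14.6 and 20.5 CPM in the controls, with overlap (log2 fold change 0.67 ± 0.15, edgeR adjusted p = 5.76e-04), and its irradiated vehicle median was 295 CPM. Bcl2l11 (BIM), a BH3-only gene not in the p53 list, had 38.1, 47.1 and 69.9 CPM against 8.03, 13.7 and 19.8 CPM (1.87 ± 0.18, edgeR adjusted p = 1.64e-12). Among 14 anti-apoptotic genes 2 were higher and 1 lower, of which 1 and 1 held. This was a share of 21.4% called beside 18.3% of all genes. Mcl1, on which HSC survival depends, had 445, 565 and 651 CPM in irradiated dmPGE2 HSC against 231, 277 and 323 CPM in unirradiated vehicle HSC (1.00 ± 0.09, edgeR adjusted p = 1.69e-13), and Cflar, an inhibitor of caspase-8, fell to a median of 46.8 CPM against 65.8 CPM. Of 39 genes of double-strand break repair and its checkpoint, 2 were higher and 4 lower, a share of 15.4% called beside 18.3% of all genes, and 1 and 4 held.

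Of 34 NF-kB and inflammatory genes, 15 were higher and 1 lower (median log2 fold change 0.62), and 14 and 1 held. Cd69, an early activation antigen, had 205, 317 and 671 CPM in irradiated dmPGE2 HSC against 7.10, 12.7 and 20.6 CPM in unirradiated vehicle HSC (log2 fold change 4.85 ± 0.21, edgeR adjusted p = 3.70e-25), with a median of 532 CPM after radiation alone and 31.5 CPM after dmPGE2 alone. Nfkbia, which encodes the NF-kB inhibitor IkB alpha, had 355, 605 and 1111 CPM against 140, 181 and 275 CPM (1.74 ± 0.14, edgeR adjusted p = 6.31e-15), beside 1819 CPM in irradiated vehicle and 145 CPM in unirradiated dmPGE2 HSC (medians). The neutrophil chemokine Cxcl2 ran the other way relative to radiation alone: it had 49.6, 77.3 and 122 CPM in irradiated dmPGE2 HSC, a median of 25.7 CPM in irradiated vehicle and 3.25 CPM in unirradiated dmPGE2, and 0 to 1.75 CPM in the controls. The difference of irradiated dmPGE2 from irradiated vehicle HSC in Cxcl2 did not pass the test (log2 fold change 1.46 ± 0.54, edgeR adjusted p = 0.0594). Of 31 type I interferon genes, 0 were higher and 10 lower (median log2 fold change -0.29), and 9 held. Irf9, the DNA-binding subunit of the interferon-activated complex, had 95.1, 138 and 165 CPM in irradiated dmPGE2 HSC against 174, 233 and 264 CPM in unirradiated vehicle HSC (-0.74 ± 0.09, edgeR adjusted p = 3.56e-09), without overlap. Stat2, Ifit1, Ifit3 and Rtp4 were also lower.

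Genes of CDK inhibition and quiescence included 12 higher and 3 lower of 26, of which 11 and 3 held. Tob2, an antiproliferative gene of the BTG family, had 211, 261 and 345 CPM in irradiated dmPGE2 HSC against 81.7, 94.6 and 121 CPM (log2 fold change 1.49 ± 0.10, edgeR adjusted p = 3.8e-18). Txnip, which restrains glucose uptake, fell to 419, 662 and 938 CPM in irradiated dmPGE2 HSC against 1231, 1764 and 2160 CPM in the controls (-1.35 ± 0.14, edgeR adjusted p = 1.78e-11). Proliferation genes were mostly not called: 1 of 48 G1/S and replication genes was higher and 0 lower, and of 58 G2/M genes 2 were higher and 1 lower. With same-tag controls summed, 0 genes of either list were higher. Of 32 glycolysis and hypoxia genes, 11 were higher and 1 lower, all of which held. Vegfa, an angiogenic factor induced by hypoxia, had 143, 189 and 221 CPM in irradiated dmPGE2 HSC against 4.84, 10.1 and 17.2 CPM in unirradiated vehicle HSC (4.06 ± 0.19, edgeR adjusted p = 1.41e-24). Hk2, the first enzyme of glycolysis, had 210, 257 and 340 CPM against 21.1, 28.9 and 76.6 CPM (2.88 ± 0.20, edgeR adjusted p = 7.72e-17). Neither gene's groups overlapped.

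**Figure D4:**
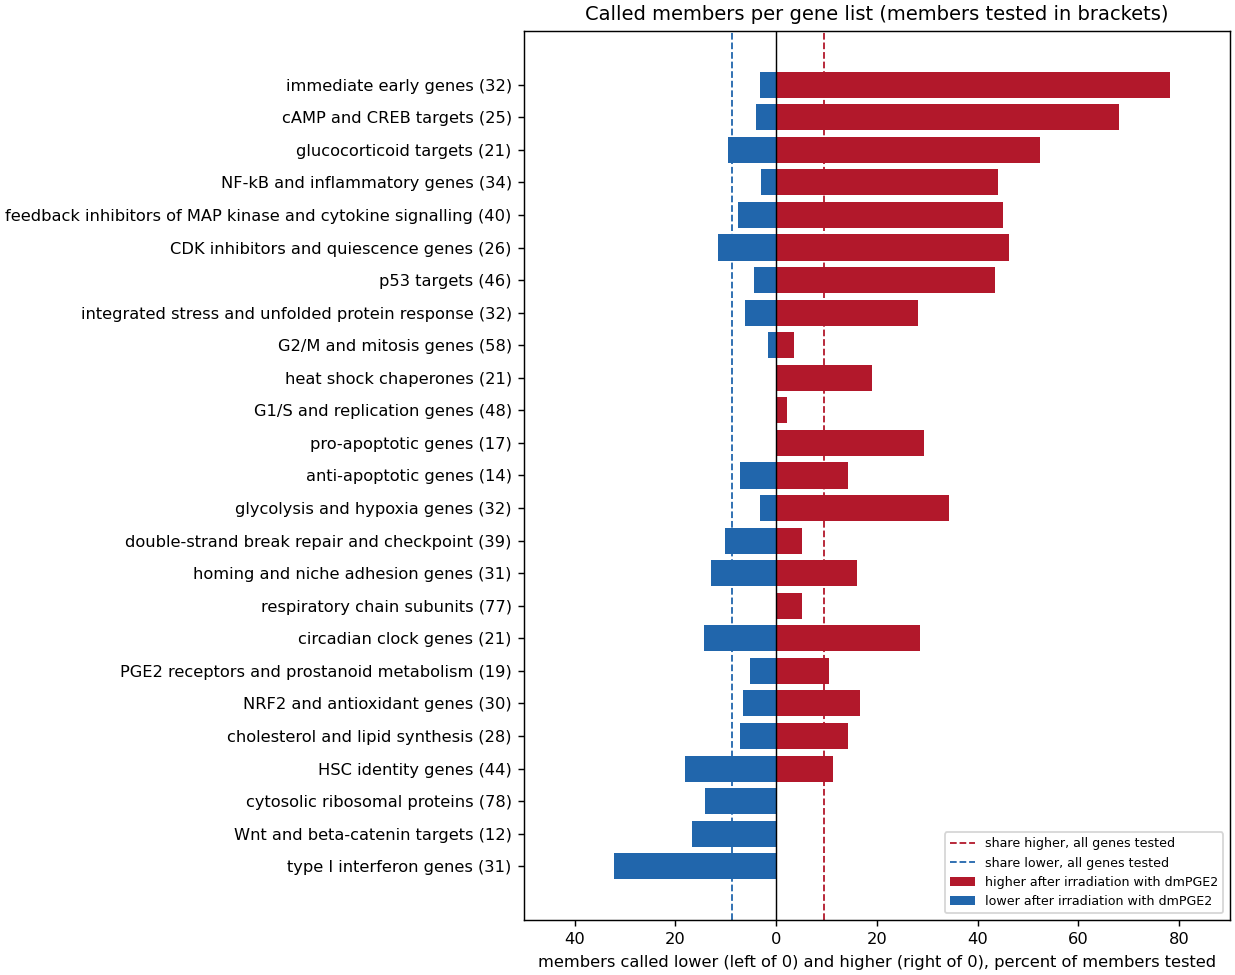
Share of tested members called higher (right of 0) and lower (left of 0) in irradiated dmPGE2 against unirradiated vehicle HSC for 25 gene lists, ordered by median log2 fold change; dashed lines give the shares over all genes tested. Immediate early genes reach 25 higher of 32, and 10 of 31 type I interferon genes were lower.

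Of 44 genes of HSC identity, 5 were higher and 8 lower, beside 9.55% and 8.76% of all genes. Of these 2 and 4 held, beside 5.75% and 5.84% of all genes. Mycn, a MYC family factor of HSC (chr12:12936093-12941836), had 87.7, 122 and 206 CPM in irradiated dmPGE2 HSC against 342, 391 and 540 CPM in unirradiated vehicle HSC, without overlap (log2 fold change -1.72 ± 0.15, edgeR adjusted p = 3.66e-14). Gfi1b, a repressor that limits HSC expansion, had 20.2, 53.2 and 71.9 CPM against 71.3, 121 and 181 CPM, with slight overlap (-1.32 ± 0.20, edgeR adjusted p = 1.09e-06). Nkx2-3, a homeobox gene of HSC, rose to 110, 211 and 256 CPM against 55, 71.3 and 93.7 CPM (1.47 ± 0.14, edgeR adjusted p = 6.35e-13). Genes that mark the sort (Fgd5, Slamf1, Kit and Ly6a) and Procr, a further HSC marker, were not called. Fgd5 had a median of 86.4 CPM in irradiated dmPGE2 HSC and 98.4 CPM in the controls. In the same order, medians were 133 and 119 CPM for Procr, 55 and 54.5 CPM for Slamf1, and 1342 and 1537 CPM for Kit. Those of Ly6a were 245 and 324 CPM (log2 fold change -0.35 ± 0.13, edgeR adjusted p = 0.0554). In sorted bulk RNA, fewer cells of a kind and less RNA per cell cannot be told apart.

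Homing and adhesion genes included 5 higher and 4 lower of 31, beside 9.55% and 8.76% of all genes, and 4 and 2 held, beside 5.75% and 5.84%. F3, tissue factor, was near 0 in the controls (0 to 0.308 CPM) and had 15.1, 24.3 and 40.0 CPM in irradiated dmPGE2 HSC. Its median was 0.735 CPM after radiation alone and 9.99 CPM after dmPGE2 alone. S1pr1, the sphingosine phosphate receptor that guides cells out of tissues, had 127, 187 and 238 CPM in irradiated dmPGE2 HSC against 58.6, 79.2 and 97.7 CPM in unirradiated vehicle HSC (1.26 ± 0.18, edgeR adjusted p = 2.85e-07). Cxcr4, the receptor that holds HSC in the marrow, fell to 8.19, 12.7 and 22.0 CPM in irradiated dmPGE2 HSC against 18.3, 29.6 and 42.5 CPM, with overlap (-1.14 ± 0.19, edgeR adjusted p = 3.85e-06).

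At the same minimum level, the 12 genes with the lowest fold changes were Rsrp1, Cited2, Bbs10, Zfp418, Cldn5, Dnajc28, Pdk4, Lrif1, Mycn, Lpar5, Efna1 and Clec14a, and each held. Rsrp1 had 23.3, 45.7 and 112 CPM in irradiated dmPGE2 HSC against 109, 239 and 309 CPM in unirradiated vehicle HSC (log2 fold change -2.23 ± 0.28, edgeR adjusted p = 8.63e-09), with overlap at the edge. AI467606 had the lowest p among lower genes, with 58.2, 61.8 and 76.9 CPM against 156, 175 and 237 CPM (-1.53 ± 0.09, edgeR adjusted p = 1.96e-21). Il16, a cytokine gene, had 87.4, 137 and 164 CPM against 260, 328 and 370 CPM (-1.28 ± 0.12, edgeR adjusted p = 3.76e-13). These decreases were smaller than the leading increases, and in AI467606 and Il16 the groups did not overlap.

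Of 32 integrated stress genes 9 were higher and 2 lower, and 7 and 2 held. Among them was Cebpb, a factor of emergency myelopoiesis, which had 204, 1134 and 1842 CPM against 14.0, 40.9 and 119 CPM (4.57 ± 0.36, edgeR adjusted p = 2.05e-14). Of 21 glucocorticoid targets 11 were higher and 2 lower (median log2 fold change 1.28), and 10 and 1 held. Nfkbia, Ddit4, Sgk1, Dusp1, Per1, Zfp36, Errfi1 and Pik3ip1 of these are also in other lists. Clock genes gave 6 higher and 3 lower of 21, NRF2 and antioxidant genes 5 and 2 of 30, lipid synthesis genes 4 and 2 of 28, and Wnt targets 0 and 2 of 12, beside 9.55% and 8.76% of all genes. In these lists 5 and 2, 5 and 2, 3 and 0, and 0 and 2 genes held. Heat shock chaperones gave 4 higher and 0 lower of 21, and 1 held; Hspa1a and Hspa1b, near-identical copies, lost their calls without 1 irradiated dmPGE2 library. Respiratory chain subunits gave 4 and 0 of 77, and 1 held. Of 78 cytosolic ribosomal protein genes 0 were higher and 11 lower, but against the controls S42 to S70 alone 1 was higher and 0 lower, and 0 held.

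Markers of other cell types were called in 7 of 10 lists, in 1 member each: Ltf, Cd14, Rab27b and Irf8 were higher and Cd79b, Klrb1c and Ramp2 lower, of which Cd14, Rab27b, Irf8 and Klrb1c held. The share of tested markers called ran from 0% to 20% per list, beside 18.3% of all genes. The 20% was 1 of 5 B cell markers. The summed megakaryocyte and platelet markers ran from 452 to 815 CPM in irradiated dmPGE2 HSC and from 331 to 548 CPM in the controls, and Rab27b, the member called, had medians of 163 and 50.2 CPM. Summed neutrophil markers ran from 291 to 871 CPM in irradiated dmPGE2 HSC and from 273 to 1822 CPM in the controls, a sum whose members went in both directions. Their median log2 fold change was 1.18, the highest of the 10 marker lists, with 1 of 14 called. Medians in irradiated dmPGE2 HSC and in the controls were 29.9 and 1.5 CPM for Ltf, 50.2 and 6.60 CPM for Ngp, 36.6 and 4.53 CPM for S100a9, 35.5 and 3.84 CPM for S100a8 and 9.04 and 0.691 CPM for Camp, all genes of neutrophil granules or cytosol. In the same order, the medians in irradiated vehicle HSC were 27.6, 41.6, 29.2, 28.7 and 9.95 CPM. Those in unirradiated dmPGE2 HSC were 5.59, 24.5, 21.5, 21.1 and 1.38 CPM. Mpo, Elane and Ctsg, granule enzymes of earlier stages, had medians of 113, 35.4 and 7.52 CPM in irradiated dmPGE2 HSC and of 235, 48.3 and 18.2 CPM in the controls, and in each of these genes the groups overlapped. Mast and basophil markers ran from 27.8 to 296 CPM in irradiated dmPGE2 HSC and from 29.1 to 638 CPM in the controls. Their part in the results was not tested. The globin genes Hba-a1 and Hba-a2, close copies of each other, and Hbb-bs and Hbb-bt, likewise close copies, had 0 counts in every library of the 4 groups. Summed erythroid markers still ran from 31.5 to 290 CPM in irradiated dmPGE2 HSC and from 26.4 to 213 CPM in irradiated vehicle HSC. In the controls they ran from 48.6 to 97.8 CPM. The medians of these sums were 48.9, 53.9 and 64.7 CPM, and of 6 members tested 0 were called.

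The distance of a library from the mean of the unirradiated vehicle libraries was taken as the root mean square, over all genes tested, of the difference in log2 CPM. It was 0.656, 0.749 and 0.764 (lowest, median, highest) in irradiated dmPGE2 HSC, 0.626, 0.701 and 0.886 in irradiated vehicle, 0.600, 0.652 and 0.697 in unirradiated dmPGE2, and 0.465, 0.560 and 0.754 in unirradiated vehicle HSC, each control being measured from the other controls. Those others include any same-tag partner, so the control distances may be too small if same-tag controls come from the same mouse. The means were 0.735 ± 0.036 (SD, n = 8) in irradiated dmPGE2, 0.713 ± 0.081 (SD, n = 8) in irradiated vehicle, 0.645 ± 0.033 (SD, n = 7) in unirradiated dmPGE2 and 0.574 ± 0.088 (SD, n = 15) in unirradiated vehicle HSC. Irradiated dmPGE2 HSC lay 0.0897 farther from the control than unirradiated dmPGE2 HSC (two-sided exact permutation test, adjusted p = 0.00186 over 2 tests). The difference from irradiated vehicle HSC was 0.0212 and within the spread of the libraries (two-sided exact permutation test, adjusted p = 0.533), which does not show the distances to be equal. Gene by gene, 14.8% of genes were called between irradiated dmPGE2 and irradiated vehicle HSC (1008 higher, 1113 lower), and 0.377% between irradiated dmPGE2 and unirradiated dmPGE2 HSC (51 higher and 3, or 0.0209%, lower). Of the 113 named genes, 61 were called in the comparison with irradiated vehicle and 15 in that with unirradiated dmPGE2. Most named genes were chosen by their difference from unirradiated vehicle HSC in the same irradiated dmPGE2 libraries. These 2 counts are therefore raised by the choice and cannot be read against the shares of all genes.

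**Figure D5:**
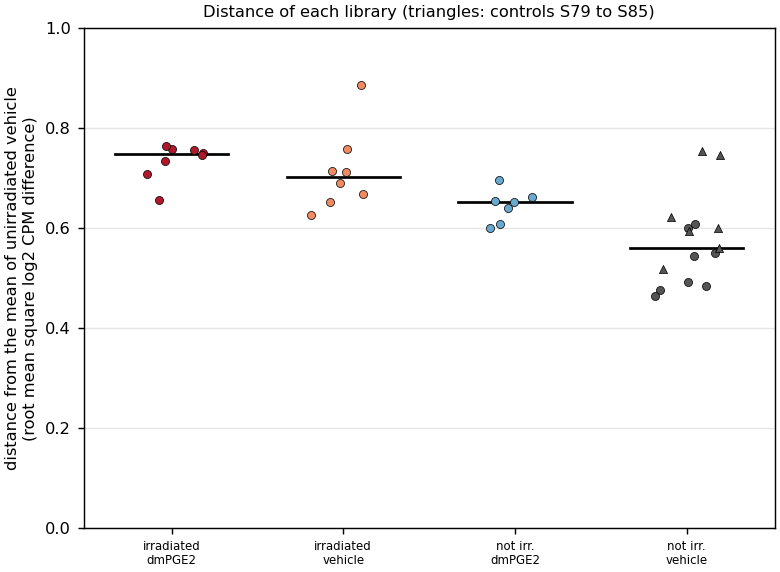
Distance of each library from the mean of the unirradiated vehicle libraries (root mean square difference in log2 CPM over 14320 genes) for the 4 groups, with medians as lines and the control libraries S79 to S85 as triangles. Irradiated dmPGE2 libraries sit between 0.656 and 0.764. Irradiated vehicle overlaps this range fully, and unirradiated dmPGE2 and the controls (0.465 to 0.754) overlap it in part.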

How the data were processed

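Total RNA of sorted HSC was made into libraries with SMART-Seq v4 and Nextera XT, per the labels' protocols, a method that marks neither strand nor molecules, so a count is of reads and overlapping antisense genes cannot be separated. Reads were aligned to mm10 with STAR 2.5.2b and counted with featureCounts (Subread 1.5.1), as the submitters' processing notes list. Deposited were raw integer counts of reads per gene for 24421 genes and 54 libraries, as the authors gave them, with no scaling. For the annotation and multiply mapped reads, settings were not given in the sources used here.

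Columns were given to groups by their names; names at 1 h give no time, and those of irradiated mice without a 24 h mark were taken as 1 h. From these counts, genes were kept by filterByExpr (count minimum 10), scaled by TMM and fitted with edgeR 4.0.16 in R 4.3.3 (robust quasi-likelihood, 6 groups, 54 libraries, 48 residual degrees of freedom, common dispersion 0.121). Genes were called at a Benjamini-Hochberg adjusted p below 0.05. SE was taken as |log2 fold change|/√F. CPM carry TMM factors, and log2 CPM a prior count of 3; marker sums use total counts without TMM. On simulated counts of 14151 genes the fit recovered 70.0% of 1.5-fold, 71.4% of 2-fold and 95.9% of 4-fold changes in this comparison. The simulation drew all libraries independently, so these shares do not carry over if same-tag controls come from the same mouse. Distances were compared by exact permutation. The edgeR p-values set a group difference against a spread estimated from all 54 libraries. They do not reflect the spread between mice if same-tag controls come from the same mouse.

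Named genes are the 12 highest and 12 lowest log2 fold changes of called genes whose mean log2 CPM reached 2, and the 6 lowest p in each direction. They also include the 4 called members of each list with the lowest p, the 4 highest p53 targets not called, and 5 markers of the sort or of HSC. Members, lists and tests were chosen with earlier results of these data known. Other list members given in the text were added after their values were seen. Alternatives were RLE and upper-quartile scaling, DESeq2 1.42.0, other filters, thresholds and groups in the fit, each library left out, and a replicate block; those on same-tag controls, on the 2 runs of controls and on tag 5-2 were chosen after seeing the data.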

Additional observations from a re-analysis of the deposited data

Results flagged for a closer look

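Among the 8 irradiated dmPGE2 libraries, 114 measures (113 named genes on the log2(CPM + 1) scale, and the distance) were searched for a library whose gap to the nearest other exceeded 0.526 of the whole range. 14 were found, where chance gives about 1 in 20. Library 6 was lowest in 6 genes: Plk2 at 165 CPM (426 to 684 CPM in the other 7), Maff at 39.1 CPM (59 to 81.2 CPM), Dusp2 at 762 CPM (1149 to 1524 CPM), Ddit4 at 62.9 CPM (154 to 261 CPM), Sgk1 at 82.3 CPM (120 to 167 CPM) and Sesn1 at 188 CPM (283 to 384 CPM). Library 4 was highest in the p53 targets Gdf15 at 99.9 CPM (14.2 to 34.2 CPM) and Pmaip1 at 38.7 CPM (4.18 to 9.82 CPM), and lowest in Nkx2-3 at 110 CPM (178 to 256 CPM). Library 1 was lowest in Cebpb at 204 CPM (756 to 1842 CPM), and library 5 in Slc3a2 at 361 CPM (404 to 438 CPM). Library 7 was lowest in Ndufs1 at 111 CPM (147 to 185 CPM) and highest in Gpx1 at 1621 CPM (1177 to 1305 CPM). Library 3 was highest in Hspa1b at 36.6 CPM (1.01 to 6.77 CPM). The part of any library-wide difference in these values was not tested.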

How the results depend on the processing

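Against 2623 genes called (1368 higher, 1255 lower), an adjusted p below 0.01 left 1726 (900 and 826), and a test against a fold change of 1.5 left 359 (243 and 116). The other alternatives stayed within 1.5 times these counts, among them DESeq2 with 2832, upper-quartile scaling with 2622, the 23 libraries of both groups alone with 2896, the 1 h groups and NI-VEH alone with 3206, and no count filter with 2772. Without 1 irradiated dmPGE2 library the count ran from 2296 to 2590 (1187 to 1328 higher, 1088 to 1324 lower), and without 1 control library from 2477 to 2608 (1213 to 1335 higher, 1182 to 1355 lower). Samples of the same tag in the 2 groups were to be paired only if all 8 correlations passed 0.1. The correlations ran from 0.0437 to 0.198, with 5 of 8 over 0.1 and 4 of 8 highest for their own tag, so the main fit used no pairs. A replicate block on the tags gave 2876 genes called (1493 and 1383). 0 of the 113 named genes reversed under any alternative run. The most lost calls came with a fold change of 1.5 (39), then with an adjusted p below 0.01 (14), only controls S79 to S85 (11), summed controls (10) and only controls S42 to S70 (9). Fos was not called in the main fit. It was called without the 2 controls of tag 5-2, which were left out after their Fos values were seen. The distance of irradiated dmPGE2 minus unirradiated dmPGE2 HSC kept its sign, but as a median absolute difference it was 0.0426 and missed the threshold (exact permutation, adjusted p = 0.0572); the cause was not tested. Without 1 irradiated dmPGE2 library it ran from 0.0855 to 0.101, and that from irradiated vehicle HSC from 0.0170 to 0.0324. Genes near 0 in the controls, such as F3, have fold changes that depend on the prior count.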

Other observations

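In 11 of 14320 genes every irradiated dmPGE2 library lay above every library of the other 3 groups, and in 1 (Gm14325) below; these genes were singled out after their values were seen. They are Il10, Cxcl1, Rasd1, Vegfa, Dusp5, Csrnp1, Pim3, Hbegf, Fhl2, Yrdc and Mafk. Il10, an anti-inflammatory cytokine, had 19.8, 27.9 and 55.5 CPM (lowest, median, highest) in irradiated dmPGE2 HSC, with medians of 0.106 CPM in irradiated vehicle HSC, 2.88 CPM in unirradiated dmPGE2 HSC and 0.0399 CPM in unirradiated vehicle HSC. Its highest value outside irradiated dmPGE2 HSC was 7.56 CPM, in unirradiated dmPGE2 HSC. The Il10 difference from unirradiated dmPGE2 HSC did not pass the test over all genes (log2 fold change 3.16, edgeR adjusted p = 0.0753). Hbegf, a ligand of the EGF receptor, had 19.8, 23.1 and 29.1 CPM in irradiated dmPGE2 HSC and medians of 6.76 CPM in irradiated vehicle, 15.6 CPM in unirradiated dmPGE2 and 7.31 CPM in unirradiated vehicle HSC.

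Genes whose symbol is Zfp and a number, most of them zinc finger factors, were also counted after values were seen. Of 341 tested, 15 were higher and 163 (47.8%) lower in irradiated dmPGE2 than in unirradiated vehicle HSC, beside 8.76% lower of all genes, with a median log2 fold change of -0.42. Against the controls S42 to S70 alone 147 were lower, beside 6.87% of all genes, with a median of -0.45. Against irradiated vehicle HSC 12 were higher and 90 lower, beside 7.04% and 7.77% of all genes.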
